A study of Mus musculus with 23 samples.

Results

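Neuropeptides are small signalling peptides cut from larger precursor proteins. Neurons sort the precursors into dense-core vesicles, where prohormone convertases and further enzymes trim them before release. Granins are acidic proteins of the same vesicles, which help to form them and are themselves cut into peptides. In the hippocampus, somatostatin (Sst), neuropeptide Y (Npy) and cholecystokinin (Cck) mark classes of inhibitory interneurons, and dynorphin (Pdyn) is a peptide of dentate granule cells.

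The genes described here are 10 of the 55487 gene IDs in the count tables. They encode the precursors of substance P (Tac1), somatostatin, neuropeptide Y, cholecystokinin, enkephalin (Penk), dynorphin and corticotropin-releasing hormone (Crh), the binding protein of that hormone (Crhbp), and the granin-family proteins Vgf and secretogranin 2 (Scg2). They were chosen by name as a family, with their levels in these libraries already known, and were matched by Ensembl ID to symbols. Their levels and detection in the 4 groups, and by replicate number in somata, were the values in view when they were chosen. Those values are therefore given as a description, and the test results beside them come from fits to the whole table and are not independent support.

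The RNA came from cultured hippocampal neurons of C57Bl/6 mice killed at postnatal day 1. Every culture, control or stretched, received magnetic nanoparticles at 5 µg/ml and grew in a chamber whose microchannels part axons from cell bodies. Stretched cultures were exposed to a field gradient of 50 T/m between day 1 and day 6 in vitro, while control cultures had no gradient. RNA was taken from the axonal compartment (5 control and 6 stretched libraries) or from the somatodendritic compartment, called soma here (6 control and 6 stretched libraries). The labels do not say whether the libraries of a group come from separate cultures or animals, so p-values measure only the spread between these libraries.

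Libraries held 16369153 to 43048953 counts, and 3 counts corresponded to 0.0697 to 0.183 counts per 1000000 counts of the library (CPM). Between 22452 and 24575 genes had a count in somata and between 4263 and 10242 in axons. The cultures were mixed: the astrocyte gene Gfap stood at 3546 to 10496 CPM in somata. The axonal libraries, labelled as pure axonal, held Gfap at 2867 to 20253 CPM and the dendritic gene Map2 at 25.6 to 656 CPM. The 12 soma libraries fell into 6 with high levels of the Y-linked gene Eif2s3y (24.7 to 28.7 CPM, replicate numbers 1, 2, 3 and 8) and 6 with low levels (5.39 to 13.2 CPM, numbers 4, 5 and 6), each side with 3 control and 3 stretched libraries. Xist was at 9.05 to 16.7 CPM in the former and 15.5 to 25.1 CPM in the latter. Control soma replicate 4 stood apart from the other controls. Genes whose longest transcript is under 1000 nt took 2.97% of its nuclear-encoded counts, against 3.79% to 4.28% in the other 5 control somata and 2.64% to 3.03% in the stretched somata. Control axon replicate 3 held 6 of the 10 genes, more than any other axonal library.

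All 10 genes were counted in all 12 soma libraries. Ordered by CPM per kb of longest transcript, Scg2 was highest (120 ± 33.1, SD, n = 12), followed by Sst (78.3 ± 22.8), Npy (60.2 ± 17.0), Pdyn (39.6 ± 14.9), Vgf (22.4 ± 11.7) and Cck (14.9 ± 10.9). Penk (5.83 ± 1.97), Crhbp (1.34 ± 0.73), Tac1 (1.23 ± 0.35) and Crh (0.60 ± 0.50) were the lowest. The ranges of neighbours in this order overlapped, except those of Penk (3.05 to 9.18 CPM per kb) and Crhbp (0.78 to 3.04).

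In stretched somata 5 of the 10 genes fell: Tac1, Sst, Npy, Penk and Crhbp. None rose. Of all 15632 genes tested, 25.1% passed the threshold (edgeR adjusted p under 0.05), 13.9% as lower and 11.2% as higher. The median log2 fold change was -0.60 over the 10 genes and -0.03 over all genes tested. In bulk libraries, fewer cells of a type and less RNA per cell cannot be told apart.

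**Figure D1:**
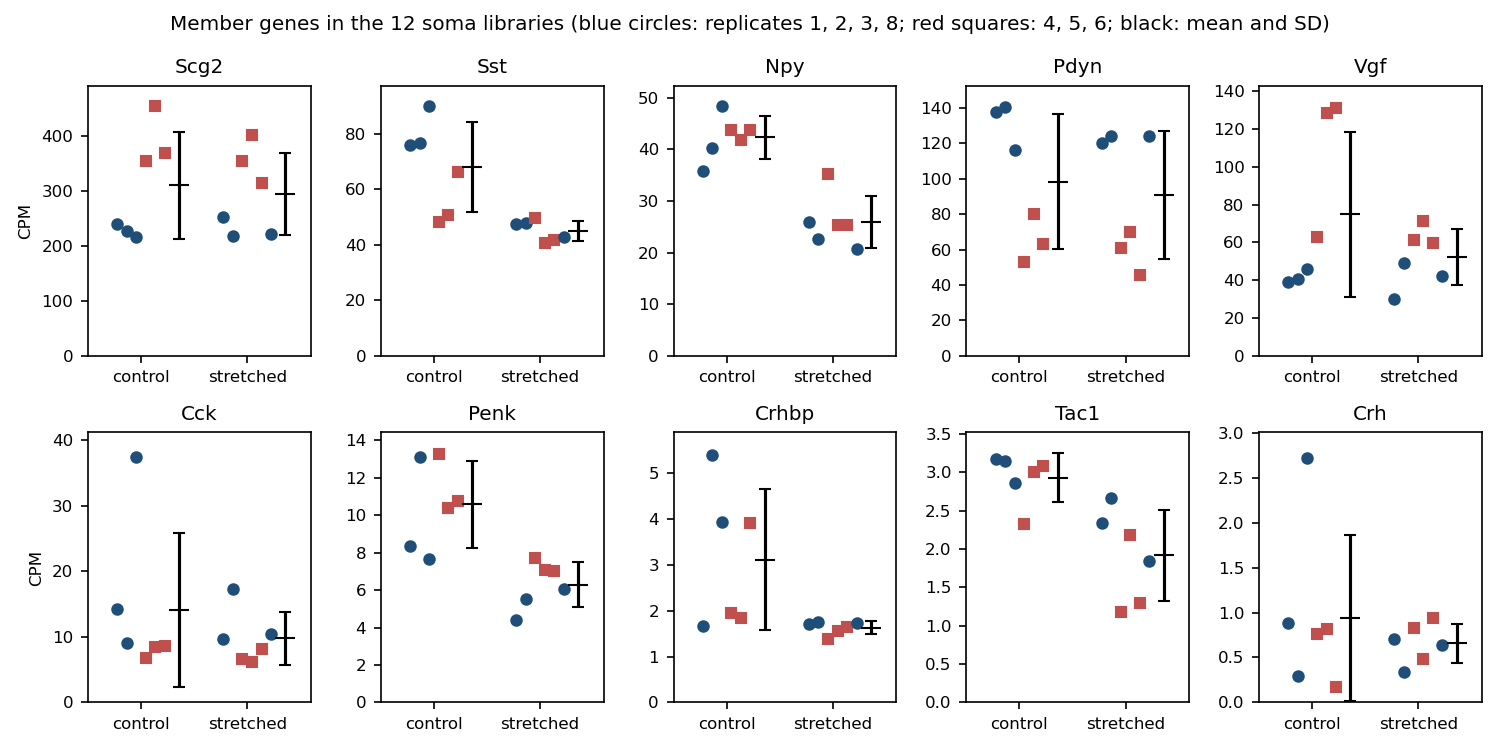
CPM of each gene (vertical axis, linear, from 0) in the control and stretched soma libraries (horizontal axis); points are libraries, coloured by replicate number, and black bars are the mean and SD of each group (n = 6). The stretched libraries lie below all controls for Npy only, and Pdyn, Cck, Vgf and Scg2 separate by colour rather than by treatment.

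Among the interneuron peptides, Npy (chr6:49822710-49829507, plus strand, GRCm38), whose peptide dampens excitatory transmission, had a lowest, median and highest level of 35.9, 42.8 and 48.4 CPM in control somata and of 20.7, 25.3 and 35.3 CPM in stretched somata. Every stretched library lay below every control library, a separation that 2.27% of the genes tested showed in this direction. The fitted level was 1.68-fold lower (log2 fold change -0.75, SE 0.13, edgeR adjusted p = 0.00356). Sst (chr16:23889573-23890958, minus strand), the precursor of an inhibitory peptide, stood at 48.2, 71.0 and 90.0 CPM (lowest, median, highest) in controls and at 40.7, 45.1 and 49.6 CPM in stretched somata. Its groups overlapped only through control replicate 4, the lowest control, and the fitted level was 1.55-fold lower (log2 fold change -0.63, SE 0.14, edgeR adjusted p = 0.00807). Cck (chr9:121489824-121495694, minus strand) had medians of 8.88 CPM in control and 8.97 CPM in stretched somata. Its mean was higher in controls (14.1 ± 11.7 against 9.77 ± 4.06 CPM, SD, n = 6 each), with control replicate 3 at 37.5 CPM and the next control at 14.2 CPM. The log2 fold change of Cck was -0.57 (SE 0.40, edgeR adjusted p = 0.317) and -0.004 without control replicate 3.

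Several neuropeptide genes carry a cyclic AMP response element before their start, and the one in the somatostatin gene is a classic example. Both strands of the 250 bases before the RefSeq start (GRCm38.p6) were searched for the full element TGACGTCA and for its core, TGACG or CGTCA, counted also where it lies inside a full element. Windows were given for 7 of the 10 genes. Penk, Crh and Vgf had none. The full element was found in Sst and Scg2, the core alone in Tac1 (at 2 places, the nearer shown), Cck and Crhbp, and neither in Npy or Pdyn. The stretches are shown as a description of the 5 genes that held either sequence. Capitals mark the element. Distances are from the RefSeq start, while the gene spans in the text are GENCODE's. The 2 starts differ, so the stretches of Sst, Scg2, Tac1 and Crhbp lie inside those spans.
Sst, chr16:23890875-23890902, minus strand, first base of the element 48 bases before the start: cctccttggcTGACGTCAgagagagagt
Scg2, chr1:79440077-79440104, minus strand, 68 bases before the start: gctgagccggTGACGTCAgcgtggaatg
Tac1, chr6:7555008-7555032, plus strand, 43 bases before the start: tctacaggctCGTCAcgcctgagat
Cck, chr9:121495727-121495751, minus strand, 47 bases before the start: tgctggactgCGTCAgcactgggta
Crhbp, chr13:95444881-95444905, minus strand, 64 bases before the start: gctggaccctCGTCAttgccacgca

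Of all 32851 promoter windows, 1.55% held the full element and 17.8% the core. Among tested genes with a full element, 19.7% of 350 were lower in stretched somata with a median log2 fold change of -0.07, beside 14.9% of 11471 and -0.04 for all tested genes with a window. Whether the element had a part in the fold changes was not tested. Only 250 bases before each start were searched, and Penk, Crh and Vgf had no window.

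The opioid precursors differed in their values. Penk (chr4:4133531-4138819, minus strand), the enkephalin precursor, stood at 7.68, 10.6 and 13.3 CPM (lowest, median, highest) in control and at 4.41, 6.54 and 7.71 CPM in stretched somata. The groups touched only at the lowest control and the highest stretched library, and Penk was 1.73-fold lower (log2 fold change -0.79, SE 0.18, edgeR adjusted p = 0.00928). Pdyn (chr2:129686565-129699844, minus strand) was at 52.8, 98.0 and 140 CPM in control and at 45.5, 94.9 and 124 CPM in stretched somata. These ranges overlapped almost fully, and the log2 fold change was -0.16 (SE 0.30, edgeR adjusted p = 0.723).

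Tac1 (chr6:7554879-7565834, plus strand), the substance P precursor, was low, with 27 to 87 counts per soma library. It stood at 2.32, 3.04 and 3.18 CPM in control and at 1.18, 2.01 and 2.66 CPM in stretched somata. Only control replicate 4 and stretched replicates 1 and 2 overlapped, and the log2 fold change was -0.65 (SE 0.23). Its edgeR adjusted p of 0.0499 lay at the threshold, and the call was lost in 19 of 24 alternative analyses. Crh (chr3:19693401-19695396, minus strand), the stress-axis peptide, was near the detection limit with 4 to 83 counts per library. Its levels were 0.17 to 2.73 CPM in control and 0.34 to 0.94 CPM in stretched somata (log2 fold change -0.57, SE 0.52, edgeR adjusted p = 0.442), and without control replicate 3 the log2 fold change was 0.13.

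Crhbp (chr13:95431371-95444924, minus strand), which binds corticotropin-releasing hormone and limits its action, had the lowest log2 fold change of the 10 genes. Its levels were 1.66, 2.93 and 5.41 CPM in control and 1.39, 1.68 and 1.75 CPM in stretched somata. Controls spread widely while the stretched libraries lay close together, with a coefficient of variation of 49.1% against 8.32%. Crhbp was 1.97-fold lower (log2 fold change -0.98, SE 0.30, edgeR adjusted p = 0.0266), and 10 of 24 alternative analyses lost the call.

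Neither granin passed the test. Vgf (chr5:137026392-137033351, plus strand), a granin-family precursor that neurotrophins induce, had medians of 54.5 CPM in control and 54.4 CPM in stretched somata. Control replicates 5 and 6, at 129 and 131 CPM, raised the control mean to 74.8 ± 43.4 CPM against 52.3 ± 14.8 CPM (SD, n = 6 each; log2 fold change -0.55, SE 0.34, edgeR adjusted p = 0.242). Scg2 (chr1:79434669-79440120, minus strand), the precursor of secretoneurin, was at 215 to 455 CPM in control and 219 to 401 CPM in stretched somata. Its log2 fold change was -0.12 (SE 0.21, edgeR adjusted p = 0.717).

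The 5 genes that fell have longest transcripts of 566 nt (Npy), 721 nt (Sst), 1449 nt (Penk), 1779 nt (Crhbp) and 1975 nt (Tac1). Pdyn, Scg2 and Vgf, at 2386, 2515 and 2834 nt, are longer and did not pass the test. Cck (799 nt) and Crh (1320 nt) are short and did not pass it either. Over all genes tested, transcript length moved with the fold change. Of genes under 1000 nt 28.9% were lower in stretched somata, with a median log2 fold change of -0.40. From 1000 to 2000 nt 30.8% were lower (median -0.30). From 2000 to 3000 nt, the class of Pdyn, Scg2 and Vgf, 15.4% were lower and 3.49% higher (median -0.14). From 3000 nt upwards 6.78% were lower and 18.2% higher (median 0.14). Genes under 1000 nt took 3.91% of nuclear-encoded counts in control and 2.91% in stretched somata on average.

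With offsets for transcript length and GC content fitted in each library, 1 of the 5 calls was kept, that of Npy (log2 fold change -0.45, SE 0.14, edgeR adjusted p = 0.0374), where 9.89% of all genes passed as lower. Sst went from -0.63 to -0.29 (SE 0.11, edgeR adjusted p = 0.0722) and Penk from -0.79 to -0.54 (SE 0.20, edgeR adjusted p = 0.0797). Crhbp stood at -0.78 (SE 0.29, edgeR adjusted p = 0.0768) and Tac1 at -0.55 (SE 0.23, edgeR adjusted p = 0.11). All 5 stayed negative. Whether the length pattern belongs to the stretched neurons or to the preparation of the libraries cannot be told apart here.

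**Figure D2:**
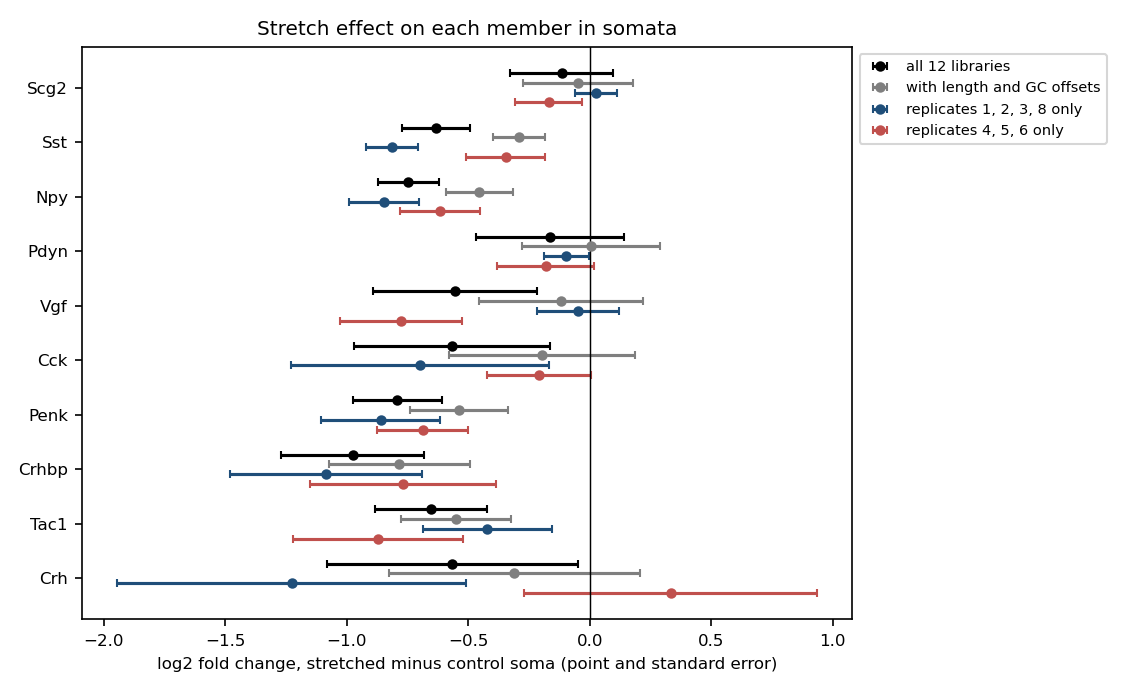
Log2 fold change of each gene, stretched minus control soma (horizontal axis, point and standard error), over all 12 soma libraries, with offsets for transcript length and GC content, and within the replicate numbers 1, 2, 3 and 8 or 4, 5 and 6. The offsets move Sst from -0.63 to -0.29 and Npy from -0.75 to -0.45, and Vgf lies at -0.05 in one set of libraries and -0.78 in the other.

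The 2 sides of the Eif2s3y split differed in 4 of the 10 genes without overlap. Pdyn was at 116 to 140 CPM in the 6 libraries high in Eif2s3y and at 45.5 to 79.9 CPM in the 6 low ones, and Cck at 9.13 to 37.5 against 6.25 to 8.64 CPM. Of all genes tested, 3.36% lay higher without overlap in the libraries high in Eif2s3y. The granins went the other way, with Vgf at 30.3 to 49.3 against 59.6 to 131 CPM and Scg2 at 215 to 254 against 315 to 455 CPM, as did 1.69% of all genes. Gfap also differed, at 7556 to 10496 CPM in the libraries high in Eif2s3y and 3546 to 4436 CPM in the others. The part of cell composition in these differences was not tested.

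Within the libraries high in Eif2s3y, Sst (log2 fold change -0.81, SE 0.11, edgeR adjusted p = 0.00207), Npy (-0.85, SE 0.14, edgeR adjusted p = 0.00372) and Penk (-0.86, SE 0.24, edgeR adjusted p = 0.0266) were lower in stretched somata, where 12.7% of all genes were. In the low libraries no gene of the table passed at all (0 of 15718 by edgeR, 2739 at an unadjusted p under 0.05). There the log2 fold changes were -0.35 (SE 0.16) for Sst, -0.62 (SE 0.16) for Npy and -0.69 (SE 0.19) for Penk. With control replicate 4 left out of the low libraries, only control replicates 5 and 6 remained there, a choice made after seeing the data. Sst, Npy, Penk and Vgf then passed, beside 14.2% of all genes, and Vgf was at -1.07 (edgeR adjusted p = 0.00038). Over all soma libraries with length and GC offsets, Vgf was at -0.12 (SE 0.34, edgeR adjusted p = 0.849). In the high libraries Vgf was at -0.05 (SE 0.17, edgeR adjusted p = 0.855). The difference between the sides was not past the threshold for any of the 10 genes. Its smallest unadjusted p was that of Sst (0.0172, edgeR adjusted p = 0.629), and the adjusted p for Vgf was 0.689. Over all genes the difference passed for 0 of 15632 by edgeR and stood at an unadjusted p under 0.05 for 1169.

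With control replicate 4 left out of the full set, the same 5 genes fell, beside 20.1% of all genes, and Tac1 had an edgeR adjusted p of 0.0263.

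Scg2 and Vgf varied together over the 12 soma libraries after the group means were taken out (Pearson r = 0.84, n = 12), and Scg2 and Pdyn varied in opposite directions (r = -0.78). Vgf, Scg2 and Pdyn all differed between the sides of the Eif2s3y split, and with the means of both sides taken out as well, r was 0.22 for Vgf and Scg2 and 0.86 for Pdyn and Scg2. Points share libraries and depth, and these values are descriptions. In the likeness values that follow, the sides of the split were not taken out. The deviations of Pdyn, Scg2 and Vgf followed those of Eif2s3y itself (r = 0.84, -0.94 and -0.85), so their lists may restate the split. Genes above 10 CPM whose deviations were most like those of Pdyn were the astrocyte genes Mlc1 (r = 0.99), Aldh1l1 (0.99) and Clu (0.98). For Scg2 they were Fndc9 (0.99), Sln (0.98) and Ache (0.98), for Vgf Tnfrsf12a (0.93), Zyx (0.93) and Dusp26 (0.92), and for Sst Slc2a8 (0.95), Myl9 (0.93) and Mettl5 (0.92). Npy was most like Cltb (0.85), Nup214 (0.82) and Clasp2 (0.82), and Penk most like Zfp318 (0.91), Cpne8 (0.90) and Zfp263 (0.89). For Cck they were H2afj (0.94), Fam81a (0.92) and Nectin3 (0.92), and for Tac1 Kctd21 (0.87), S100a11 (0.84) and Vim (0.83). Crhbp was most like Rufy1 (0.89), Supt7l (0.86) and Rpl23a (0.81), and Crh most like Pcdha12 (0.90), Lin7b (0.89) and Gdf11 (0.89). Each set of genes was picked as the highest of 9532 or 9533 compared over 12 libraries. The highest of so many can reach a large r by selection alone, and how large was not tested.

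**Figure D3:**
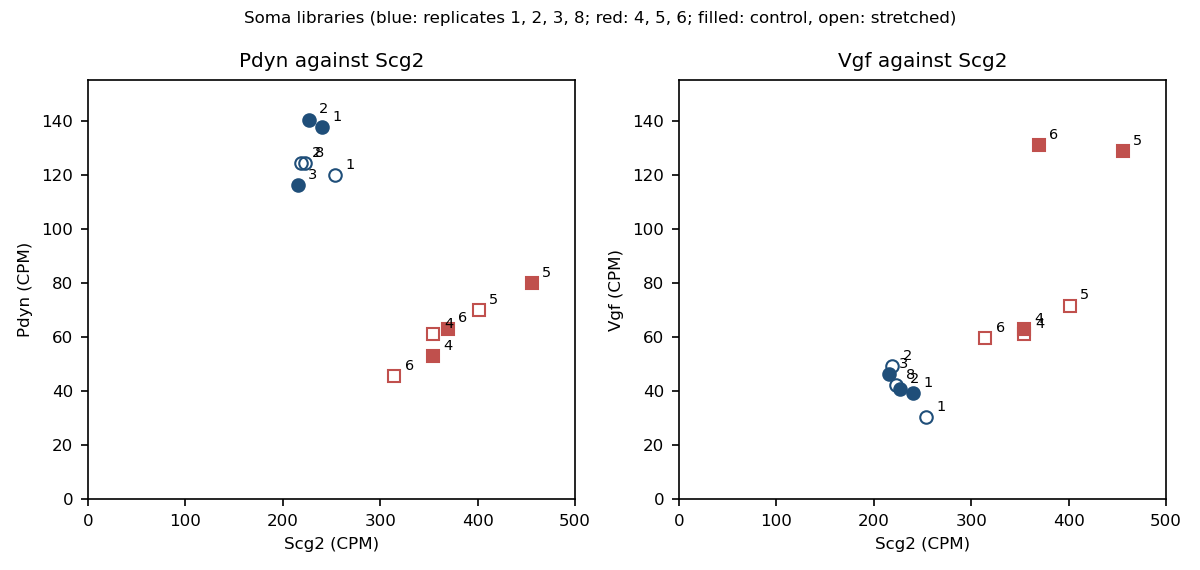
Pdyn (left) and Vgf (right) against Scg2, all in CPM, in the 12 soma libraries; labels are replicate numbers, blue and red are the libraries high and low in Eif2s3y, and filled and open symbols are control and stretched. Pdyn lies at 116 to 140 CPM in the blue libraries and 45.5 to 79.9 CPM in the red ones, while Scg2 is at 215 to 254 CPM in blue and 315 to 455 CPM in red.

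Other genes of the peptide pathway were described by lists, to be read beside the 13.9% of all genes tested that were lower and the 11.2% higher. These shares take no account of transcript length, and those of short genes were different, as given above. Together with the marker lists below, 16 genes of 131 tested were lower and 7 higher. With offsets for length and GC content, 13 were lower and 6 higher, where 9.89% of all genes passed as lower. Of 17 tested precursors of other neuropeptides, 2 fell and none rose, namely Pnoc (log2 fold change -0.73, SE 0.16, edgeR adjusted p = 0.00705) and Nmb (-0.83, SE 0.22, edgeR adjusted p = 0.0153), and the median was -0.54. Pnoc, Nucb2 and Grp were the most abundant of the list in control somata, and of these Nucb2 (-0.17, SE 0.12) and Grp (-0.53, SE 0.20) did not pass. Of 5 other granins, Scg3 and Scg5 fell (-0.33 and -0.27, edgeR adjusted p = 0.0222 and 0.0419), and Pcsk1n, an inhibitor of prohormone convertase, did not pass (-0.77, SE 0.28, edgeR adjusted p = 0.0627). Of 11 processing enzymes 2 fell and none rose. Pam, which amidates peptide ends, went from 91.1 ± 39.1 to 38.5 ± 18.2 CPM (SD, n = 6 each; log2 fold change -1.28, SE 0.32, edgeR adjusted p = 0.0153), and the protease Ctsl was at -0.62 (SE 0.15, edgeR adjusted p = 0.0101). Carboxypeptidase E (Cpe) varied widely and did not pass (-0.84, SE 0.42, edgeR adjusted p = 0.152).

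Of 16 genes of dense-core vesicle formation and release, 5 fell and 1 rose. Over all genes tested, 13.9% were lower and 11.2% higher. Rab2a (-0.89, SE 0.16, edgeR adjusted p = 0.0045), Rab3a (-0.41, SE 0.09, edgeR adjusted p = 0.00773) and Rab27b (-0.53, SE 0.18, edgeR adjusted p = 0.0429), small GTPases of vesicle traffic, were among those lower. Syt4, a synaptotagmin of dense-core vesicles, was higher (0.30, SE 0.10, edgeR adjusted p = 0.0386). Among 10 tested receptors of these peptide families, not all of them specific to the 10 genes, Tacr3 and Crhr1 rose (0.49 and 0.86, edgeR adjusted p = 0.0439 and 0.0254) and none fell. The somatostatin receptors Sstr1 (0.07, SE 0.11) and Sstr2 (0.20, SE 0.16) did not pass.

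Cell type markers were counted in the same way, again beside 13.9% lower and 11.2% higher over all genes tested. Of 15 GABAergic interneuron markers, Gad1 (log2 fold change 0.50, SE 0.13, edgeR adjusted p = 0.0154) and Slc32a1 (0.80, SE 0.21, edgeR adjusted p = 0.0138) rose and none fell. The summed level of the 15 was 791 to 1067 CPM in control and 870 to 984 CPM in stretched somata. Most of that sum was Calb2, with means of 540 CPM in control and 487 CPM in stretched somata, so it is no measure of interneuron number. Of 15 activity-induced genes, Egr3 rose (0.59, SE 0.16, edgeR adjusted p = 0.0178) and Dusp1 fell (-0.87, SE 0.25, edgeR adjusted p = 0.0248), while Fos was at -0.87 (SE 0.33, edgeR adjusted p = 0.0664). Of 10 glutamatergic markers Camk2a fell (-0.26, SE 0.09, edgeR adjusted p = 0.039), and of 10 astrocyte markers none passed. Microglia markers summed to 39.98 to 83.8 CPM in control and 29.6 to 38.4 CPM in stretched somata. C1qa (-1.35, SE 0.22, edgeR adjusted p = 0.00313) and C1qb (-0.80, SE 0.16, edgeR adjusted p = 0.00616) of the 8 fell. Most of that sum was C1qb (means of 21.2 and 12.5 CPM) and C1qa (13.8 and 5.56 CPM), so it is no measure of microglia number. The other 6 did not pass, among them Csf1r (-0.26, SE 0.24, edgeR adjusted p = 0.431). Mog rose among 6 oligodendrocyte lineage markers (0.73, SE 0.19, edgeR adjusted p = 0.0156). Olig1, the highest of that list in control somata, leaned the other way and did not pass (-1.52, SE 0.62, edgeR adjusted p = 0.0862). Dcn fell among 8 endothelial and fibroblast markers (-0.83, SE 0.23, edgeR adjusted p = 0.0191), while Col1a1 (0.26, SE 0.17) and Col3a1 (0.10, SE 0.22) did not pass. The part of these cell types in the peptide results was not tested.

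**Figure D4:**
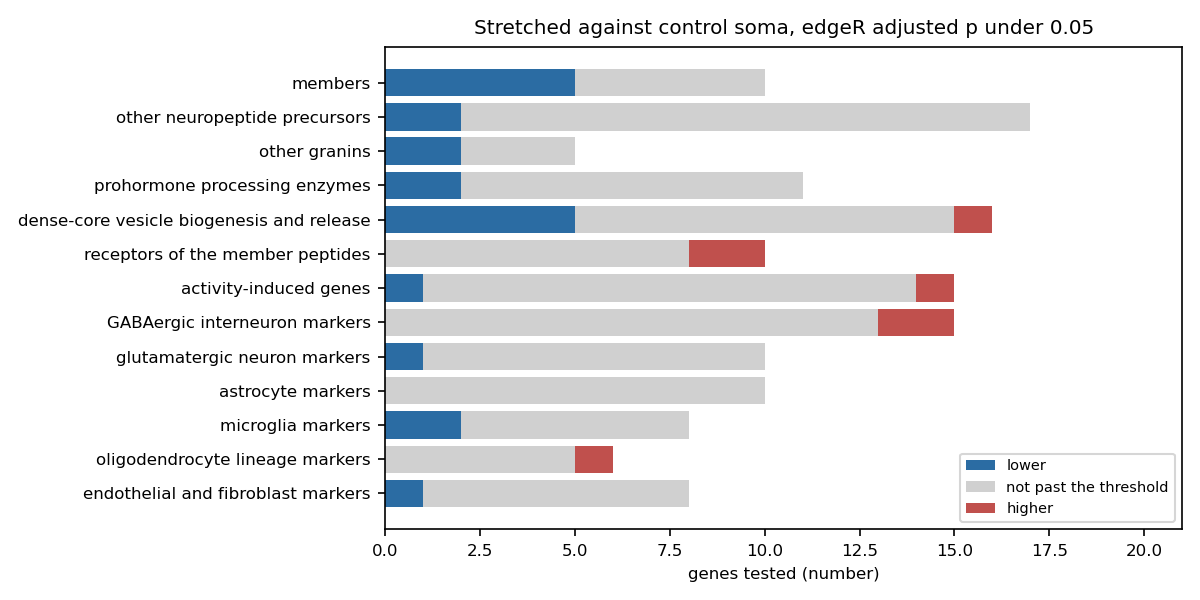
Number of tested genes (horizontal axis) that were lower, higher or not past the threshold in stretched against control soma for the 10 genes described and 12 further lists. The 10 genes have 5 lower and none higher, and the receptor and GABAergic lists have 2 higher each and none lower. Over all genes tested, 13.9% were lower and 11.2% higher.

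In axons detection was sparse. Tac1, Crh and Crhbp had no count in any of the 11 axonal libraries, and Sst (517 CPM), Penk (127 CPM) and Cck (66.1 CPM) were counted in control replicate 3 alone. Npy was counted in 6 libraries, Pdyn in 3, Vgf in 8 and Scg2 in 9. Absence was common at such soma levels: 34.2% of all genes with a soma mean of 1 to 10 CPM, the range of Tac1, Penk and Crhbp, and 64.3% of those at 0.3 to 1 CPM, the range of Crh, had no count in any axonal library. Over all genes with a soma mean of 10 to 100 CPM, the range that holds Sst, Npy, Cck, Pdyn and Vgf, the median gene was counted in 4 axonal libraries, with quartiles of 2 and 6. Scg2 matched the median of 9 libraries for genes at 100 to 1000 CPM.

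**Figure D5:**
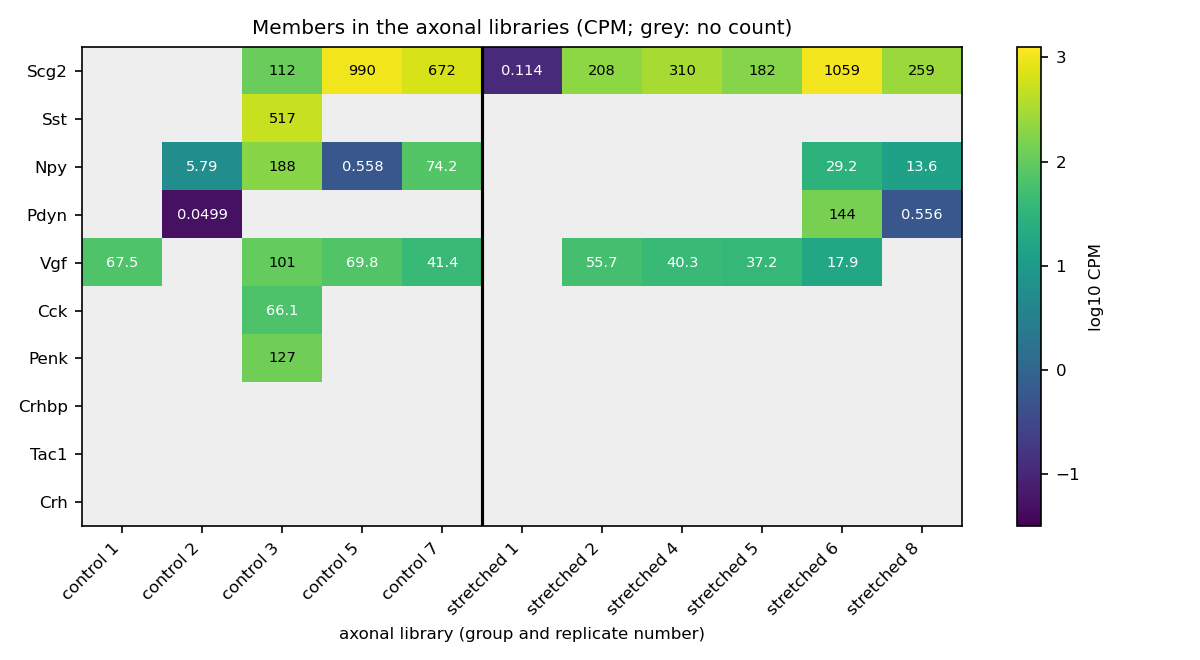
CPM of each gene (rows) in the 5 control and 6 stretched axonal libraries (columns), with colour on a log10 scale and grey where no read was counted. Sst, Cck and Penk appear in control replicate 3 alone, at 517, 66.1 and 127 CPM, and Scg2 ranges from no count to 1059 CPM.

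The granins were the most often counted. Scg2 had no count in control axons 1 and 2 and stood at 112, 990 and 672 CPM in replicates 3, 5 and 7. In stretched axons its lowest, median and highest levels were 0.114, 233 and 1059 CPM, the lowest resting on 3 counts. Vgf was at 67.5, 101, 69.8 and 41.4 CPM in control axons 1, 3, 5 and 7 and had no count in replicate 2. It reached 55.7 CPM in stretched axons, with no count in replicates 1 and 8. Npy was at 5.79, 188, 0.558 and 74.2 CPM in control axons 2, 3, 5 and 7 and at 29.2 and 13.6 CPM in stretched axons 6 and 8. Pdyn was at 144 CPM in stretched axon 6, on 11 counts in stretched axon 8, and on 1 count in control axon 2.

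Between stretched and control axons 3 of the 10 genes could be tested and none passed. The log2 fold changes were -2.72 (SE 2.80) for Npy, -1.21 (SE 2.31) for Vgf and -0.14 (SE 1.86) for Scg2. Of all 4947 genes tested, 0% passed by edgeR (46 at an unadjusted p under 0.05), DESeq2 called 18 and limma voom 9, none of them among the 10. With standard errors of this size, differences of several fold were not detectable.

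Genes with no or hardly any axonal count entered the comparisons with somata only through the soma libraries, so their calls restate that absence and are no further result. Against somata, Tac1, Pdyn and Crhbp, of which only Pdyn had a count (1, in 1 library), were lower in control axons among 9 genes tested, where 35.3% of all genes passed and 34.4% were lower. Without control axon replicate 3, 7 genes were lower (38.9% of all genes), with Sst, Cck, Penk and Crh added. In stretched axons Tac1, Sst, Cck, Penk and Crhbp, all with no count in any of the 6 libraries, were lower than in stretched somata among 9 tested, where 29.3% of all genes passed and 28.4% were lower. In stretched cultures the soma mean of Sst was 323-fold above the mean axonal floor of 3 counts per library, that of Cck 70.1-fold and that of Penk 45.2-fold. The soma mean of Tac1 was 23.04-fold above that floor in control and 13.7-fold in stretched cultures, and that of Crhbp 24.5-fold and 11.7-fold. These ratios restate the absence and are no bound on the difference in RNA. Whole genes could be missing from a library, as Sst was at 517 CPM in control axon replicate 3 and uncounted in every other axonal library. In control axons Sst, Cck and Penk, high in replicate 3 alone, did not pass with all libraries, and neither did Pdyn in stretched axons (-2.27, SE 2.30). Without stretched axon replicate 6, which held Pdyn at 144 CPM, Pdyn was lower (-9.88, edgeR adjusted p = 0.00365), and 7 of the genes were, with Pdyn and Crh added. Npy, Vgf and Scg2 did not pass in either comparison. Their control log2 fold changes were 0.13 (SE 1.54), -0.62 (SE 1.29) and 0.06 (SE 1.76), and their stretched ones -2.18 (SE 2.04), -1.57 (SE 1.52) and -0.20 (SE 1.06).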

How the data were processed

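Per the submitters' processing notes, FastQC 0.11.9, MultiQC 1.12, fastp 0.20.1, STAR 2.7.08a and HTSeq 0.13.5 were used with build mm10. The role of each tool, the strand setting and any use of molecular identifiers are not given in the sources used here. The authors deposited raw counts as whole numbers for each Ensembl ID, in 1 table per library. Rows of uncounted reads were left out of library totals. Reads of genes with near-identical copies or overlaps may be undercounted.

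CPM were computed here per library total. Each comparison was fitted on its own libraries with edgeR 4.0.16 in R 4.3.3 (filterByExpr, TMM, robust quasi-likelihood F test), with Benjamini-Hochberg adjustment over all genes tested and a threshold of 0.05. The SE is the size of the log2 fold change divided by the square root of F. The fits were tested on simulated data. In the simulated axonal comparisons the smaller change tried, of several fold, was hardly recovered. The spread simulated there was below the fitted one, so the simulation does not vouch for the axonal fits. Floors of 3 counts allow for counting error alone, because reads come from amplified cDNA. Of the 55487 IDs, 55141 had a symbol and a length (GENCODE, GRCm38, the build named mm10 in the notes). Promoter windows are RefSeq's.

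Alternatives were total-count scaling, voom with sample quality weights (limma 3.58.1), DESeq2 1.42.0, no filter, the replicate number as a block, the Eif2s3y split as covariate or subset, offsets for length and GC (mgcv 1.9.3), and leaving out libraries. The 10 genes and the other lists were chosen with earlier results of these data known. The length classes, share of counts in short genes, test between the sides of the split, low side without control replicate 4, calls among genes with a full element, axonal detection by soma level and correlations within the split were chosen after seeing the data. Genes named come from the 10 genes, from each list the 3 highest in control somata and up to 2 called genes with the highest and lowest fold change at a mean of at least 1 CPM, the 3 genes most like each of the 10, and the checks Eif2s3y, Xist, Gfap and Map2.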

Additional observations from a re-analysis of the deposited data

Results flagged for a closer look

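In 10 of the 31 gene and group pairs with any spread, 1 library lay far from the rest of its group. Chance gives about 1 such case in 20 groups of normally distributed values, but that rate does not apply to 4 of the 10 pairs, all in control axons, where every other library had no count and any single count would stand apart. It is no fair yardstick in stretched axons either, where Pdyn was counted in 2 of 6 libraries and Scg2 ran from 0.114 to 1059 CPM. In control axon replicate 3, Sst (517 CPM), Cck (66.1 CPM) and Penk (127 CPM) were counted while the other 4 control axon libraries had no count of them. Stretched axon replicate 6 held Pdyn at 144 CPM against at most 0.556 CPM in the others, and Scg2 at 1059 CPM against at most 310 CPM. Pdyn in control axon replicate 2 (0.0499 CPM) rests on 1 count. Control soma replicate 3 was high in Cck (37.5 CPM, next 14.2 CPM) and in Crh (2.73 CPM, next 0.88 CPM). Control soma replicate 4 was low in Tac1 (2.32 CPM, next 2.86 CPM), and stretched soma replicate 4 was high in Npy (35.3 CPM, next 25.9 CPM).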

How the results depend on the processing

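The count of genes lower in stretched somata (5 of 10) was 4 with total counts or no filter, 5 with DESeq2, voom or the split as covariate, 4 without both libraries numbered 4, 3 in the libraries high in Eif2s3y, 0 in the low ones, 4 there without control replicate 4, and 1 with length and GC offsets. Without 1 library at a time it was 3 to 5, and 3 without control replicate 2, 3 or 6 or stretched replicate 4. Sst, Npy and Penk were called in each of these 12 fits, Npy with an adjusted p of at most 0.0158. The replicate number was not used as a pairing, since the labels give it no meaning and not every pair correlated above 0.1: same-numbered soma libraries had 0.27, 0.26, 0.16, 0.07 and 0.28, against a mean of -0.034 between different numbers, and 2 of 5 control somata correlated best with their own number. The numbers also follow the Eif2s3y split. Correlations that involve axonal libraries were lower. With the replicate number as a block, 3 genes (Sst, Npy, Penk) were called in somata and 7 in stretched axon against soma, and with offsets added 2 (Npy, Penk). The other lists held 23 called genes of 131 tested, beside 25.1% of all genes. Their count was 15 to 39 without 1 library (15 without control replicate 5, 39 without control replicate 4). It was 36 with the split as covariate, 37 without both libraries numbered 4 and 19 with length and GC offsets. In control axon against soma, voom called 5 and leaving out 1 library gave 3 to 7. In stretched axon against soma it gave 5 to 7, with 7 without stretched axon replicate 6.

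Signs turned only for genes that had not passed. In somata, Crh turned to 0.20 (block), 0.33 (low side), 0.55 (low side without control replicate 4) and 0.45 (block with offsets), Cck to 0.24 (block with offsets), Pdyn to 0.0054 (offsets) and Scg2 to 0.025 (high side). Without 1 library, Crh ranged from -0.78 to 0.13 (without control replicate 3) and Scg2 from -0.22 to 0.051 (without control replicate 5). In stretched against control axon, Scg2 turned to 4.24 (voom) and 4.42 (block) and ranged from -0.97 to 0.94 without 1 library. In control axon against soma, voom gave Sst -8.64, Npy -3.29, Penk -6.33 and Scg2 -6.26, the block gave -12.1, -4.75, -9.59 and -6.91, and no filter gave Npy -0.089 and Scg2 -0.013. Without 1 library, Sst ranged from -13.8 to 0.74, Npy from -1.35 to 0.45, Penk from -11.2 to 1.39 and Cck from -11.6 to 0.29, each lowest without control axon replicate 3, and Scg2 from -0.92 to 0.38. In stretched axon against soma, Scg2 turned to 0.19 (total counts) and ranged from -1.06 to 0.026 without 1 library. The cause was not tested. Sparse axonal counts limit those comparisons to differences of many fold.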
